A study of Rattus norvegicus with 9 samples.

Results

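The genes described here are 5 that are widely used to recognise reactive astrocytes: Gfap, Vim, Timp1, Lcn2 and Cd44. They were chosen by Ensembl gene ID and make up 5 of the 34784 rows of a count table from rat hypothalamus: ENSRNOG00000002919 (Gfap), ENSRNOG00000018087 (Vim), ENSRNOG00000010208 (Timp1), ENSRNOG00000013973 (Lcn2) and ENSRNOG00000006094 (Cd44). The table itself carries no symbols, so each symbol rests on the pairing of ID and name used in this choice. The choice was made with earlier results of these data known. The tissue came from rats of the S-D strain and contained the SON and the PVN, the supraoptic and paraventricular nuclei, whose large neurons produce oxytocin and vasopressin. It was sampled 7 d after PEL surgery, 1 d after PEL surgery, or from rats labelled Control, with 3 bulk RNA-seq libraries in each group. In the published study PEL is an electrical lesion of the pituitary stalk, a model of central diabetes insipidus in which the axons of these neurons are damaged. The labels give neither the age nor the sex of the rats, nor what was done to the Control animals, nor whether each library came from a separate animal. P-values therefore measure the spread between these libraries, which may be technical.

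Astrocytes respond to injury of the central nervous system with a change of state called reactivity. They thicken their intermediate filament skeleton, of which Gfap and vimentin (Vim) are the main proteins, release factors that act on the matrix and on other cells, and in severe injury form a border around the lesion. Gfap is the usual marker of astrocytes. The other members are less selective: Vim is also made by endothelial cells, ependymal cells and tanycytes, Cd44 and Timp1 also by immune and stromal cells, and Lcn2 also by neutrophils. In bulk tissue, more cells of a type and more RNA per cell cannot be told apart.

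At 1 d after surgery 5 of the 5 genes were called higher than in Control, of which the Lcn2 call was lost under 11 of 19 alternative settings of the processing. A call is an adjusted p below 0.05, and at 1 d 11.4% of all tested genes were called higher. At 7 d 2 of the 5, Timp1 and Gfap, were called higher than in Control, where 0.842% of all tested genes were. The 7 d call of Gfap was also lost under 11 of 19 alternatives. Compared with 1 d, 3 of the 5 were called lower at 7 d (15.8% of all tested genes were). By 7 d Timp1 was 9.46-fold above Control, while Gfap was 1.91-fold above Control and lower than at 1 d. Vim and Lcn2 had also fallen between the times, and Cd44 was not called at 7 d against Control or against 1 d. All 5 genes passed the filter on low counts, and results are given from a test of all 17345 genes that passed it. Total counts per library were 17014260 to 18685921 at 7 d, 13338433 to 17294334 at 1 d and 18948576 to 21012998 in Control. Measured by the chi-square statistic of their counts over its degrees of freedom, 1 d replicate 3 lay 17.1 and 17.2 from the other 1 d libraries, which lay 6.99 apart, and Control replicate 1 lay 38.6 and 39.9 from the other controls, which lay 19.1 apart. Results that rest on these libraries are also given without them. Levels are in CPM, counts scaled to a common library size by TMM, and were not divided by gene length, so levels of different genes are not compared.

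The promoter sequences were searched because the 5 genes were all called higher at 1 d, Lcn2 only narrowly and with overlapping groups. A further reason is that the series' title names c-Jun and Atf3, proteins of the AP-1 and ATF families that bind short DNA motifs. The windows are the 250 bases before 1 transcription start per gene in RefSeq's annotation of the GRCr8 build. They were found by symbol for all 5 genes. Capitals mark TGANTAA on either strand, a relative of the AP-1 motif. The lines give the 2 windows with this match, Timp1 (chrX:3771123-3771372, minus strand) and Cd44 (chr3:109699425-109699674, minus strand). Gfap (chr10:88361662-88361911, minus strand) is given as a window without it. The windows of Vim and Lcn2, also without it, are not printed. The lines run 5′ to 3′ on the strand of the gene.
Timp1: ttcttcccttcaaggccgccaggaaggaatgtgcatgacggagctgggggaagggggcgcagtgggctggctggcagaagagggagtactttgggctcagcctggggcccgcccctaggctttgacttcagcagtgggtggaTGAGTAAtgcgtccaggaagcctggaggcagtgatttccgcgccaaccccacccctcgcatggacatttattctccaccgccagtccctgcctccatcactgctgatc
Cd44: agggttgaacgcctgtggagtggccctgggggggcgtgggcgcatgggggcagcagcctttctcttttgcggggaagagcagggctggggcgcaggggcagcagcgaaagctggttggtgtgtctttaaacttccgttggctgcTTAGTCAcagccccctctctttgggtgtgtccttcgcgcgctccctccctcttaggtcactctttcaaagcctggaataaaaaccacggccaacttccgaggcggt
Gfap: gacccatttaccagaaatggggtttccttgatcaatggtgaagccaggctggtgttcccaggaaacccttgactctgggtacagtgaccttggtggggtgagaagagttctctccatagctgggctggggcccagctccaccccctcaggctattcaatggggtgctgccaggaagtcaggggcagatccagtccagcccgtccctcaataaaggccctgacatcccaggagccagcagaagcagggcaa
The match in Timp1 lay 108 to 102 bases before the start, on the strand of the gene. The match in Cd44 lay 106 to 100 bases before the start, on the opposite strand. TGANTAA was present in 2 of the 5 members' windows and in 9.23% of the 33469 rat promoter windows of this length. It was added to the search after the sequences had been seen, so its 2 of 5 is not a test against that share. The AP-1 motif TGANTCA (6.34% of all windows), the cAMP response element TGACGTCA (1.59%) and the STAT motif TTCNNNGAA (7.67%), each searched on both strands, were present in 0 of the 5. No stretch can match more than 1 of these motifs from the same first base. A TATA box, TATAAA, was found 82 to 77 bases before the start in Vim and in 12.9% of all windows. A match describes letters in the window and not the binding of a factor.

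Gfap, the defining filament protein of astrocytes, was higher at both times and highest at 1 d. At 7 d its libraries held 975, 1130 and 926 CPM, at 1 d 2263, 1959 and 2318 CPM, and in Control 695, 443 and 449 CPM. No library of any group lay within the range of another group, and the lowest 1 d library stood 2.82-fold above the highest Control library. Gfap averaged 2180 ± 194 CPM at 1 d and 529 ± 144 CPM in Control (SD, n = 3 each), which was 4.12-fold higher (log2 fold change 2.04 ± 0.176 SE, adjusted p = 0.00116 by edgeR). Only 1.06% of the tested genes had a larger rise at 1 d. At 7 d it averaged 1010 ± 106 CPM, a 1.91-fold increase over Control (log2 fold change 0.93 ± 0.171 SE, adjusted p = 0.0402 by edgeR). Compared with 1 d directly, the 7 d level was 0.463 of it (log2 fold change -1.11 ± 0.171 SE, adjusted p = 0.00227 by edgeR). The 1 d rise and the fall between the times were called under all 19 alternatives. The 7 d rise was called under 8 of them and lost under 11. It was lost when any 1 library except Control replicate 1 was left out (adjusted p 0.0684 to 0.169, log2 fold change 0.82 to 0.99). Without Control replicate 1, the control with the most Gfap, the log2 fold change was 1.18 (edgeR adjusted p = 0.00116).

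Vim, the filament protein that co-assembles with Gfap in reactive astrocytes, had a similar course with more spread between libraries. Its values were 153, 227 and 144 CPM at 7 d, 476, 352 and 472 CPM at 1 d, and 81.8, 66.3 and 125 CPM in Control. The 3 groups did not overlap, but the lowest 7 d library was only 1.15-fold above the highest control. At 1 d Vim averaged 433 ± 70.8 CPM, against 91.0 ± 30.4 CPM in Control (SD, n = 3 each), a 4.76-fold increase (log2 fold change 2.25 ± 0.282 SE, adjusted p = 0.00471 by edgeR). At 7 d the mean was 175 ± 45.5 CPM. The difference of 7 d from Control, a log2 fold change of 0.94 with a 95% interval of 0.30 to 1.58, was not called (edgeR adjusted p = 0.211), and it was called under 0 of 19 alternatives. The 7 d level was 0.403 of the 1 d level (log2 fold change -1.31 ± 0.274 SE, adjusted p = 0.0109 by edgeR). The estimated increase at 7 d was thus about the size of that of Gfap, 1.92-fold and 1.91-fold, and only that of Gfap was called. The SE of the 7 d log2 fold change from Control, as given by the test, was 0.274 for Vim and 0.171 for Gfap. The gene-wise biological coefficient of variation, a separate estimate, was 0.231 for Vim and 0.150 for Gfap.

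Timp1, a secreted inhibitor of matrix metalloproteinases, showed the largest rise of the 5 genes at each time. It held 18.3, 20.6 and 11.8 CPM at 7 d, 8.95, 11.0 and 16.5 CPM at 1 d, and 2.20, 1.39 and 1.75 CPM in Control. Every library taken after surgery was at least 4.07-fold above the highest control. The ranges of 7 d and 1 d overlapped. At 1 d Timp1 averaged 12.2 ± 3.92 CPM against 1.78 ± 0.405 CPM in Control (SD, n = 3 each), an increase of 6.80-fold (log2 fold change 2.77 ± 0.301 SE, adjusted p = 0.00220 by edgeR). At 7 d it averaged 16.9 ± 4.55 CPM, 9.46-fold above Control (log2 fold change 3.24 ± 0.302 SE, adjusted p = 0.00352 by edgeR). Among all tested genes this 7 d increase ranked 24 by size, and the 1 d increase ranked 77. Both increases were called under all 19 alternatives. The direct comparison of 7 d with 1 d gave a log2 fold change of 0.48 (95% interval -0.12 to 1.07) that was not called (edgeR adjusted p = 0.212). It was called under 0 of the 19 alternatives, with log2 fold changes of 0.31 to 0.77. The Control level rested on 26 to 42 reads per library, and the exact 95% counting interval of the lowest control ran from 0.910 to 2.04 CPM.

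Lcn2, a secreted lipocalin that binds iron-carrying siderophores, had the smallest counts and the widest spread of the 5 at 7 d and at 1 d; in Control, Timp1 had fewer reads and Vim the wider spread. Its libraries held 37, 29 and 19 reads at 7 d (2.05, 1.73 and 1.07 CPM), 50, 93 and 136 reads at 1 d (2.80, 5.87 and 9.61 CPM), and 59, 32 and 42 reads in Control (3.09, 1.71 and 1.98 CPM). At 1 d the highest library was 3.44-fold above the lowest, and 1 d replicate 1 lay below Control replicate 1, so these groups overlapped. Lcn2 averaged 6.09 ± 3.41 CPM at 1 d and 2.26 ± 0.731 CPM in Control (SD, n = 3 each). The 1 d increase of 2.68-fold was called narrowly (log2 fold change 1.42 ± 0.434 SE, adjusted p = 0.0442 by edgeR). It was lost under 11 of 19 alternatives. Among left-out libraries it was lost without Control replicate 2 or 3 (adjusted p 0.132 and 0.0905), without 1 d replicate 2 or 3 (0.103 and 0.150) and without 7 d replicate 1, 2 or 3 (0.0600, 0.0660 and 0.0534). Without 1 d replicate 3, its highest library, the log2 fold change was 0.93. Without Control replicate 1 it was 1.71 (edgeR adjusted p = 0.0413). At 7 d Lcn2 averaged 1.61 ± 0.503 CPM, and its log2 fold change from Control, -0.48 with a 95% interval of -1.49 to 0.52, was not called (edgeR adjusted p = 0.726). The 7 d libraries lay below all 1 d libraries, at 0.267 of the 1 d level (log2 fold change -1.91 ± 0.447 SE, adjusted p = 0.0113 by edgeR). That call was lost only without 7 d replicate 3, and narrowly (-1.68, edgeR adjusted p = 0.0503). Exact 95% counting intervals were 8.06 to 11.4 CPM for 1 d replicate 3 and 2.08 to 3.69 CPM for 1 d replicate 1, and did not overlap. They cover counting error only.

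Cd44, a cell-surface receptor for hyaluronan, had the smallest called change at 1 d. It held 12.4, 15.7 and 13.8 CPM at 7 d, 17.8, 13.8 and 21.5 CPM at 1 d, and 10.1, 6.75 and 9.25 CPM in Control. Both groups after surgery lay above all controls and overlapped each other. At 1 d Cd44 averaged 17.7 ± 3.83 CPM against 8.69 ± 1.73 CPM in Control (SD, n = 3 each), which was 2.03-fold higher (log2 fold change 1.02 ± 0.195 SE, adjusted p = 0.00838 by edgeR), and this held under all 19 alternatives. At 7 d it averaged 14.0 ± 1.66 CPM. The log2 fold change of 0.68 from Control (95% interval 0.25 to 1.12) was not called (edgeR adjusted p = 0.159). It was called under 0 of 19 alternatives, where the adjusted p was 0.0519 to 0.467. The change between the times, -0.34 with a 95% interval of -0.76 to 0.08, was not called either (edgeR adjusted p = 0.213).

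**Figure D1:**
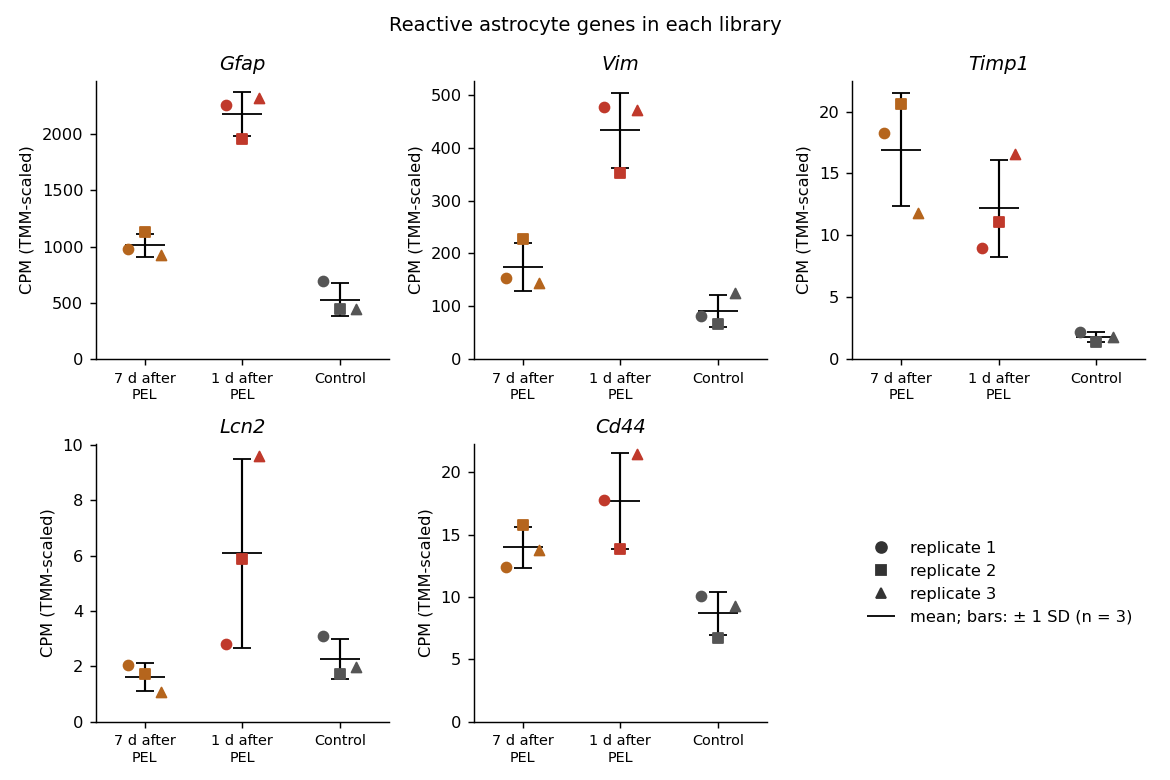
CPM (TMM-scaled, y axis from 0) of each gene in the 9 libraries, grouped on the x axis as 7 d after PEL, 1 d after PEL and Control; symbols are replicates, lines are means and bars 1 SD (n = 3). Gfap and Vim were highest at 1 d, Timp1 was above Control at both times, Lcn2 spread from 2.80 to 9.61 CPM at 1 d, and both Cd44 groups after surgery lay above the controls.

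Set against all tested genes, 4 of the 5 members were higher at 1 d without any overlap of the groups, where 20.2% of all genes were. The 5 were chosen with earlier results of these data known, so the shares and medians here describe them and test nothing. The median log2 fold change at 1 d was 2.04 over the 5 members and -0.02 over all tested genes. At 7 d 4 of the 5, Gfap, Vim, Timp1 and Cd44, were higher than Control without overlap, where 8.85% of all genes were. The 7 d medians against Control were 0.93 over the members and -0.01 over all genes. The 3 genes called lower at 7 d than at 1 d were also lower without overlap, where 24.2% of all genes were. The medians of 7 d against 1 d were -1.11 over the members and 0.03 over all genes. The 2 comparisons with Control share their Control libraries, so the values at the 2 times are not independent of each other.

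**Figure D2:**
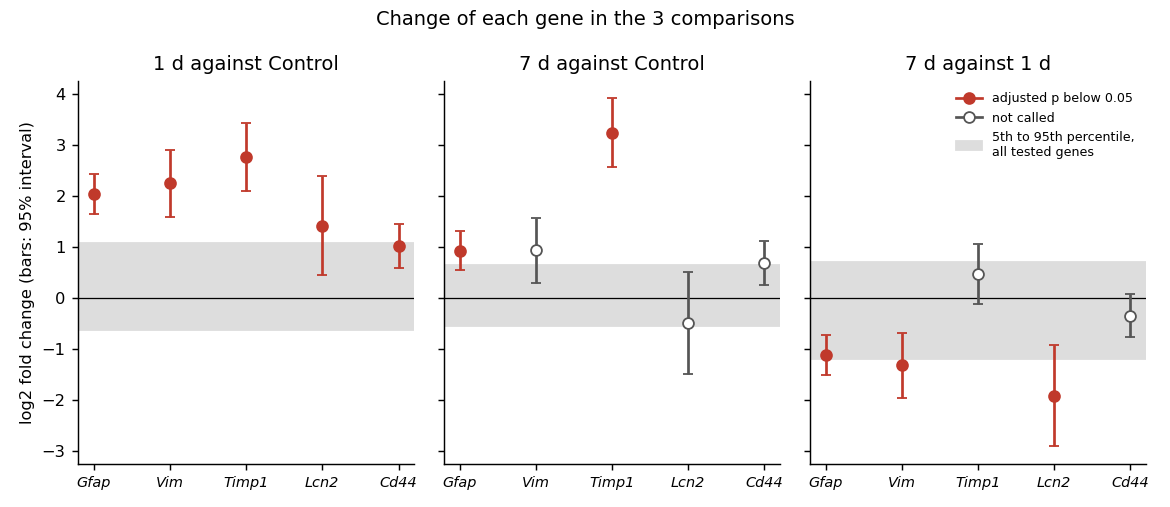
Log2 fold change (y axis) of the 5 genes (x axis) in each of the 3 comparisons, with 95% intervals; filled points were called at an adjusted p below 0.05, and the grey band spans the 5th to the 95th percentile of all 17345 tested genes. At 1 d all members but Cd44 lay above the band, and at 7 d Timp1 stood farthest above it, at 3.24.

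By their calls in the 3 comparisons, the members showed 4 combinations. These follow the threshold of the test and do not show that members differed from each other. Gfap was called higher at 1 d, higher at 7 d and lower at 7 d than at 1 d, a combination found in 5 of the 17345 tested genes. Its place there rests on the 7 d call that most left-out libraries end. Timp1 was called higher at both times with no call between them, as were 50 genes in all. Vim and Lcn2 were called higher at 1 d and lower at 7 d than at 1 d with no call at 7 d against Control, as were 1612 genes in all; the place of Lcn2 rests on a 1 d call between overlapping groups that 11 of 19 alternatives end. Cd44 was called at 1 d alone, as were 296 higher genes. A comparison without a call does not show that a level was the same as in Control.

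The reads of the other members were also set against the Gfap reads of the same library, a ratio that a single scaling factor per library does not change. Timp1 had 18.8, 18.2 and 12.8 reads per 1000 Gfap reads at 7 d, 3.96, 5.64 and 7.14 at 1 d, and 3.17, 3.14 and 3.89 in Control. In this ratio the 7 d libraries were thus all above the 1 d libraries, which were all above the controls. In CPM the 7 d and 1 d libraries of Timp1 overlapped, and their difference was not called (log2 fold change 0.48). On a log2 scale the ratio at 7 d exceeded that at 1 d by 1.59 (SE 0.305) and that in Control by 2.27 (SE 0.205), and at 1 d it exceeded Control by 0.68 (SE 0.267). Each of these 3 differences had an exact two-sided permutation p of 0.1, the smallest that 3 against 3 libraries can give, and an adjusted p of 0.2 over the 12 ratio tests. The ratio of Vim to Gfap overlapped between all groups. It was 171 ± 25.8 reads per 1000 Gfap reads at 7 d, 198 ± 16.3 at 1 d and 182 ± 85.2 in Control (SD, n = 3 each), with exact permutation p of 0.2 to 1.0 in the 3 comparisons. The log2 differences of the Vim ratio were 0.22 (SE 0.377) for 1 d against Control, 0.000405 (SE 0.390) for 7 d against Control and -0.22 (SE 0.140) for 7 d against 1 d. Control replicate 3, at 279, and Control replicate 1, at 118, were the 2 extremes of all 9 libraries for Vim.

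Cd44 stood lowest against Gfap at 1 d, where its own level was 2.03-fold above Control and that of Gfap 4.12-fold. It had 12.7, 13.9 and 14.9 reads per 1000 Gfap reads at 7 d, 7.86, 7.06 and 9.27 at 1 d, and 14.5, 15.2 and 20.6 in Control. The 1 d libraries lay below all others, with a log2 difference of -1.05 (SE 0.196) for 1 d against Control and 0.79 (SE 0.132) for 7 d against 1 d (exact permutation p = 0.1 for each, the smallest possible). Lcn2 had 2.10, 1.53 and 1.15 reads per 1000 Gfap reads at 7 d, 1.24, 3.0 and 4.15 at 1 d, and 4.45, 3.87 and 4.42 in Control. Its 7 d libraries lay below all controls (log2 difference -1.45, SE 0.260, exact permutation p = 0.1), while the 1 d libraries overlapped both other groups. In CPM, Lcn2 at 7 d overlapped Control and was not called against it (log2 fold change -0.48). The adjusted p over the 12 ratio tests was 0.2 or higher for Cd44 and for Lcn2.

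**Figure D3:**
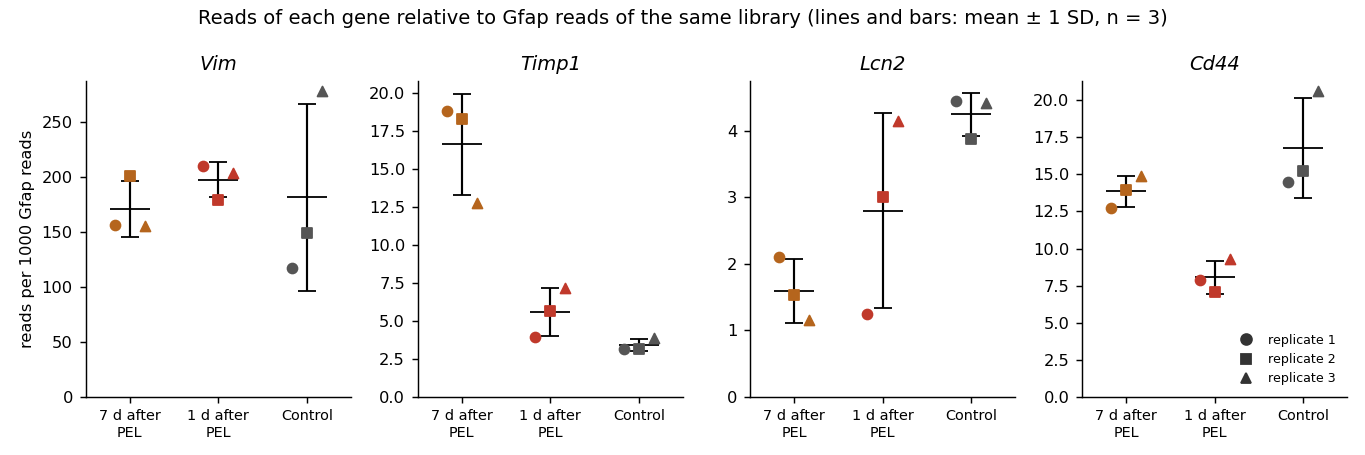
Reads of Vim, Timp1, Lcn2 and Cd44 per 1000 Gfap reads of the same library (y axis from 0), by group on the x axis; symbols are replicates, lines means and bars 1 SD (n = 3). The Timp1 ratio lay between 12.8 and 18.8 at 7 d, above all other libraries, the Cd44 ratio was lowest at 1 d, and the Vim ratio overlapped between all groups. Gfap itself was highest at 1 d, so the ratios move with Gfap as well as with the gene shown.

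Within groups the same libraries tended to be high or low for several members. Control replicate 2 was the lowest control for all 5 genes, and Control replicate 1 the highest for 4. At 1 d replicate 3 was highest for 4 genes, and at 7 d replicate 2 was highest for 4 and replicate 3 lowest for 4. Control replicate 1 and 1 d replicate 3 were the libraries that lay farthest from the others of their groups over all genes. Control replicate 2, 1 d replicate 3 and 7 d replicate 2 were the shallowest libraries of their groups, with 18948576, 13338433 and 17014260 counts. The part of depth in the levels of these genes was not tested.

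The gene whose log2 CPM followed Gfap most closely over the 9 libraries was ENSRNOG00000015921 (Pearson's r = 0.991), a rarely counted gene with 24, 19 and 18 reads at 7 d, 46, 38 and 40 at 1 d, and 15, 9 and 9 in Control. For Timp1 the closest was ENSRNOG00000005620 (r = 0.982), with 162, 150 and 148 reads at 7 d, 142, 121 and 120 at 1 d, and 111, 88 and 119 in Control. For Timp1 the likeness is one of shape and not of size, since the 7 d change of ENSRNOG00000005620 from Control was a log2 fold change of 0.70, set against 3.24 for Timp1. The log2 fold changes of ENSRNOG00000015921 from Control were 2.19 at 1 d and 1.03 at 7 d, set against 2.04 and 0.93 for Gfap. Of the other 17344 tested genes, 0.484% had an r above 0.9 with Gfap, 0.865% with Vim, 0.386% with Timp1, 0.185% with Lcn2 and 0.254% with Cd44. The 9 libraries share their group differences, so these correlations describe group levels more than variation between libraries.

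**Figure D4:**
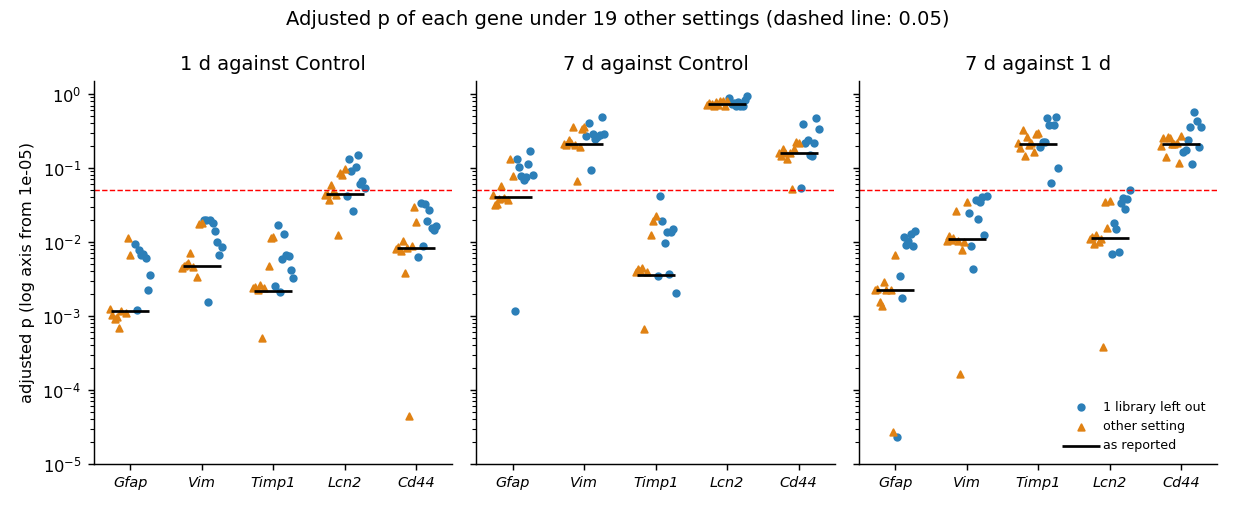
Adjusted p (y axis, logarithmic from 1e-05, which leaves out 7 lower points) of each gene (x axis) in each comparison, as reported (black line), with 1 library left out (circles) and under other settings (triangles); the dashed line marks 0.05. Against Control, the points of Gfap at 7 d and of Lcn2 at 1 d lay on both sides of the line. Those of Gfap, Vim, Timp1 and Cd44 at 1 d and of Timp1 at 7 d all lay below it. In 7 d against 1 d, Lcn2 had 1 point just above the line (edgeR adjusted p = 0.0503), and all points of Gfap and Vim lay below it.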

How the data were processed

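Bulk RNA-seq of rat hypothalamic tissue was read from 1 table in which the authors deposited raw, whole-number counts per gene for 9 libraries, without normalization. The submitters' processing notes name DESeq2 1.16.1, featureCounts 1.5.0-p3 and HISAT2 2.0.5. Build, annotation and strand setting are not given in these sources, so reads of overlapping or antisense genes may not have been told apart. Groups came from the library titles. Genes were filtered with edgeR's filterByExpr, scaled by TMM and tested in 1 edgeR quasi-likelihood fit of all groups (robust, no covariate). P-values were adjusted by Benjamini-Hochberg over all 17345 genes, with calls below 0.05. An SE is the size of a log2 fold change over the root of its F statistic, and log2 CPM used a prior count of 2. DESeq2 1.42.0, limma 3.58.1 and edgeR 4.0.16 were run in R 4.3.3. The 19 alternatives changed the scaling, the filter, the tool (DESeq2, limma-voom), the groups fitted or the replicate block, or left out 1 library. Exact permutation tests of the ratios were two-sided. No pair of replicate libraries agreed within sampling noise (chi-square over degrees of freedom 6.99 to 39.9 in 9 pairs).

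The 5 members and all lists were chosen with earlier results of these data known. The genes given by ID were the closest to Gfap and to Timp1 by Pearson correlation of log2 CPM. A further 15 gene lists given by symbol (astrocyte, other cell types, pathways) were not analysed here, because 0 of 47357 rows of the rat gene table held an Ensembl ID; markers of other cells could therefore not be set beside these results.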

Additional observations from a re-analysis of the deposited data

Results flagged for a closer look

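For 3 of the 5 genes the change from Control differed between the times, as shown by the direct test of 7 d against 1 d. The log2 difference was -1.11 for Gfap, -1.31 for Vim and -1.91 for Lcn2, and each was lower in 3 of 3 libraries at 7 d than in any library at 1 d. For Timp1 and Cd44 that difference was not called, with 95% intervals of -0.12 to 1.07 for Timp1 and -0.76 to 0.08 for Cd44. Falls from 1 d to 7 d were common in the whole set. Of all 17345 tested genes, 15.8% had a fall that was called. In 24.2% of them every 7 d library lay below every 1 d library.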

How the results depend on the processing

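The number of members called at 7 d against Control was 2 as reported. It was 1 with no filter on low counts, in a fit of only the compared groups and with replicate number as a block. When a library was left out it was 1 to 2, and in each case the lost call was that of Gfap. Over all tested genes, calls in either direction at 7 d against Control numbered 28 of 16947 in the compared groups and 74 of 17345 with the block. The 0.842% given for the reported fit counts higher genes only, so these numbers are not to be set against it. Without the filter, where the Gfap call was also lost, they numbered 196 of 24996. Without Control replicate 1, where Gfap kept its call, they numbered 739 of 17665. Without any other library they numbered 7 to 113. For Gfap the adjusted p was 0.0576 without the filter and 0.133 in the fit of the compared groups, which has fewer samples. For Lcn2 at 1 d it was 0.0596 after cyclic loess normalization, 0.0848 by limma-voom and 0.0816 in the fit of the compared groups. The cause of these changes was not tested.

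Over all 5 genes no direction reversed under the 19 alternatives. The values for 1 d against Control stayed on their side of the threshold in 84 of 95 cases, those for 7 d against Control in 84 of 95 and those for 7 d against 1 d in 94 of 95. The exceptions were all lost calls, of which 11 were Gfap at 7 d, 11 were Lcn2 at 1 d and 1 was Lcn2 between the times. The cases that stayed include genes uncalled throughout. These were Vim, Lcn2 and Cd44 at 7 d against Control, and Timp1 and Cd44 between the times. Of the genes called at 7 d against Control, Timp1 kept its call under 19 of 19 alternatives and Gfap under 8.

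The correlation between same-numbered libraries in their deviations from the group means was -0.155 to 0.0351 in 9 pairs. Between libraries with different numbers it was -0.111 to 0.187. Deviations from a mean of 3 libraries cancel within a group, so this check could not decide whether same-numbered libraries were paired. With the replicate block, 4 members were called at 1 d, 1 at 7 d and 3 between the times. Of all 17345 genes tested with the block, 2595, 74 and 4319 were called in either direction in these comparisons. Leaving a library out reduces the residual degrees of freedom. The part of depth in the lost Lcn2 calls, at 19 to 136 reads per library, was not tested.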
